A study of Mus musculus with 37 samples.

Results

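Lyve1, Stab1, Stab2, Prox1, Flt4, Cldn5, Pdpn and Itga2b are genes used to recognise the lymphatic endothelium that lines the sinuses of lymph nodes. They were chosen by name, with earlier results of these data known, as 8 of the 56351 genes in the deposited count table. They were followed across every lymph node site, spleen and an isotype control. All 8 passed the filter on low counts in both models fitted here. The study sequenced RNA bound to tagged ribosomes from mouse lymph nodes, in a series whose title concerns what sets small intestinal nodes apart. In a RiboTag mouse, cells that have had Cre make a haemagglutinin-tagged Rpl22, a protein of the large ribosomal subunit, and an antibody to the tag recovers their ribosomes together with the mRNA being translated. Every library, spleen and isotype control included, came from mice of 1 genotype, CD169 Cre KI/KI and Rpl22HA homozygous. Sites were jejunal, ileal, duodenal, ceco-colonic, liver, celiac, mediastinal, inguinal, super cervical, deep cervical and iliac nodes and spleen, with 3 libraries each, and the isotype control was 1 library from jejunal node. Strain, age and sex of the mice, and whether the 3 libraries of a site came from separate animals, are not given in the sources used here, so every p-value measures the spread between these libraries and no more.

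Sinus endothelium forms the channels through which lymph crosses a node, and it sits against the CD169-positive macrophages that the Cre line is named for. Its identity is set by the transcription factor Prox1, its growth by VEGF-C acting on the receptor Flt4 (VEGFR-3), and its lining carries receptors that take up hyaluronan and other ligands from lymph. Different stretches of the lining, on the capsular side, the cortical side and in the medulla, carry these molecules in different amounts.

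The labels name CD169 macrophages as the cell type, whereas the submitters' design text says that the cross turns on the tagged allele throughout the body, so the pull-down need not be limited to 1 cell type. Siglec1, the gene of CD169, reached at most 3.33 CPM (counts per 1000000 counts in a library) in any library and was at 0 in 13 of the 14 libraries under 1000000 counts, in 6 of the other 22 and in the isotype control. Library totals ran from 221911 to 917912 counts in those 14 libraries and from 1165387 to 69139450 in the 22, and 3 features with ribosomal sequence took 39% to 85.6% and 1.97% to 42.7% of the counts. The 22 deeper libraries were all 3 of the ileal, ceco-colonic, mediastinal, inguinal, super cervical, deep cervical and spleen libraries and jejunal replicate 2, and results rest on them unless stated. Among them mediastinal libraries held 41240156 counts or more and ileal ones 18811172 to 31849079, above the 16823454 or fewer of the other sites. Depth thus went with site, and its part in the differences between sites was not tested. Of 12 general endothelial genes all 12 passed the filter, with summed levels of 160.8 to 382 CPM in the 22 libraries, although Cdh5 (VE-cadherin) reached only 10.5 CPM. In such mixed RNA, fewer cells of a type and less RNA per cell cannot be told apart.

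The sequence just upstream of the transcription start was read from RefSeq (GRCm38.p6, windows of 300 bases that lie mostly before the start, written 5′ to 3′ on the gene's strand) for the members whose patterns by site are set against each other below. Of the 8 genes 7 had entries, with 8 starts in all. Stab1 (chr14:31168592-31168891, minus strand) and Stab2 (chr10:87007893-87008192, minus strand) are related receptors that differed in the deep cervical node. Prox1 (chr1:190170778-190171077, minus strand, the upstream one of its 2 starts) and Cldn5 (chr16:18776597-18776896, plus strand) were the members most alike across libraries. Pdpn (chr4:143299515-143299814, minus strand) was the member that was not called higher in the ileal node. Capitals mark AGGTCA or its reverse complement TGACCT, a hexamer that nuclear receptors such as Nr2f2 bind.
Stab1: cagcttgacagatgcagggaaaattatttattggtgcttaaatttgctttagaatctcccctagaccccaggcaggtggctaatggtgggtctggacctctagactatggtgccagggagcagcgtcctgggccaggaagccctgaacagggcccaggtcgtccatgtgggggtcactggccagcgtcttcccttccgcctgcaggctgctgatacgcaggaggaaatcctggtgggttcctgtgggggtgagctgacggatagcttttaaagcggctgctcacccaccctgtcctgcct
Stab2: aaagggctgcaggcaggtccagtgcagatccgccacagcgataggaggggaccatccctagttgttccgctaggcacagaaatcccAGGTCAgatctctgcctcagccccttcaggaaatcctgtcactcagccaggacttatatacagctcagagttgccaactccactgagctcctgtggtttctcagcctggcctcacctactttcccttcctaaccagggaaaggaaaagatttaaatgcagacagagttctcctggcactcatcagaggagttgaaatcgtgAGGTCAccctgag
Prox1: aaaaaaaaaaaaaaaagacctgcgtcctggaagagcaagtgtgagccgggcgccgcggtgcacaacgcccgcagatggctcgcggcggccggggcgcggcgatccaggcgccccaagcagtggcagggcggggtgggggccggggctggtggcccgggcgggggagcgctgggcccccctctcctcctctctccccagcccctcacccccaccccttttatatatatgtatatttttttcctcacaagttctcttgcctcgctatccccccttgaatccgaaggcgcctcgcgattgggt
Cldn5: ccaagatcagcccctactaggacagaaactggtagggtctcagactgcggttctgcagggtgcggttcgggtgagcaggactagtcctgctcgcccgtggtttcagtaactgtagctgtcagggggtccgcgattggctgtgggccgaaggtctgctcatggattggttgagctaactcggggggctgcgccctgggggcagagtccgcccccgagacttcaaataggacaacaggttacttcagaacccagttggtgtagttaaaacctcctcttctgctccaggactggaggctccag
Pdpn: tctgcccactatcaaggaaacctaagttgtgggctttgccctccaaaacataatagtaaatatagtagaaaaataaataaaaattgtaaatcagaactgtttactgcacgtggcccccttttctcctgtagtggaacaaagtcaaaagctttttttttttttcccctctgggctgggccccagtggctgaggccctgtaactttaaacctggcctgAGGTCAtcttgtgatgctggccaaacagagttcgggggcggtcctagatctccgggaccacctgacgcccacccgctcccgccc
The hexamer occurred at 2 places in the Stab2 window and 1 in the Pdpn window, in none of the other 6 windows, while 16.3% of all 32851 promoter windows of the same length held it. The motif GATAA or TTATC (GATA core) was in none of the 8 member windows, against 25.4% of all windows. AGGAA or TTCCT (ETS core) occurred 3 times each in the Stab1, Stab2 and Itga2b windows, once in each Prox1 window and in that of Pdpn, and not in those of Flt4 and Cldn5, with 66.7% of all windows holding it. ACAAT or ATTGT (SOX core) was in the Pdpn window alone among the members, against 31.0% of all windows. Both strands were searched, and no searched motif contains another.

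All 8 genes differed among the 7 sites with 3 deeper libraries (edgeR quasi-likelihood F test, Benjamini-Hochberg adjusted p from 3.72e-07 for Lyve1 to 0.0209 for Itga2b), where 74% of all 19651 genes tested did so too. Levels are given as CPM scaled by the trimmed mean of M values (TMM) over the 22 libraries. Among these 7 sites the ileal node held the highest mean of 7 of the 8, Pdpn being the exception with its highest mean in the mediastinal node. The single deeper jejunal library, which that order leaves out, stood above the ileal mean for Stab1 (200.3 against 155.4 CPM), Stab2 (37.9 against 13.8 CPM), Prox1 (91.7 against 15.4 CPM) and Itga2b (168.3 against 156.1 CPM), and below it for the other 4. Divided by the length of the longest GENCODE M21 transcript, ileal levels ran from 105.6 CPM per kb for Cldn5, 45.4 for Itga2b, 20.6 for Lyve1 and 19.4 for Stab1 down to 3.02 for Pdpn, 1.95 for Prox1, 1.68 for Stab2 and 1.52 for Flt4.

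**Figure D1:**
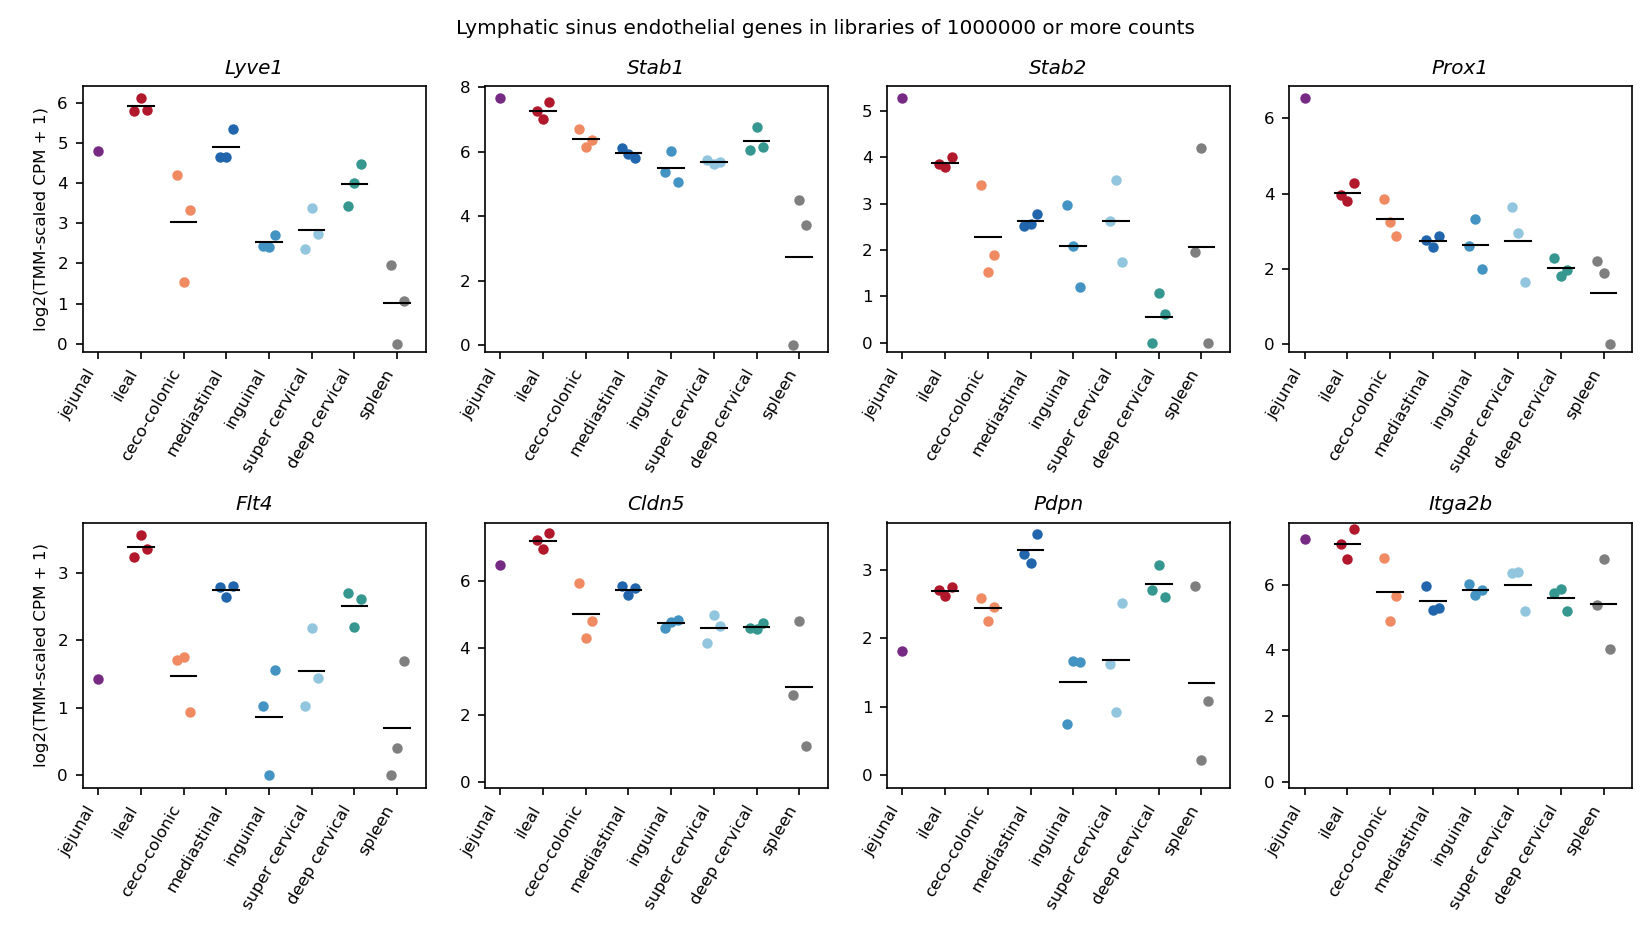
Each panel shows 1 gene, with each library as a point at log2 of its TMM-scaled CPM plus 1 and the mean of 3 libraries as a line, for the 8 sites with a library of 1000000 counts or more. The ileal points lie above those of the mediastinal, inguinal, super cervical and deep cervical nodes for every gene but Pdpn, and the spleen points spread widely.

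The comparison of a small intestinal node with nodes elsewhere was made between the ileal node and the mean of the mediastinal, inguinal, super cervical and deep cervical nodes, called the 4 non-digestive nodes here because their labels name no digestive organ. In the ileal node 7 of the 8 genes were higher and none was lower, with 1.62% of all genes called higher, 1.28% lower and 2.9% in either direction. For the same 7 genes each of the 3 ileal libraries stood above all 12 libraries of the 4 nodes, as was so for 1.48% of all genes. The median log2 fold change of the 8 was 1.68, against -0.005 over all genes tested. The number called rests on the ileal libraries, since it was 4 without ileal replicate 1, 5 without replicate 2 and 2 without replicate 3, where Lyve1 and Cldn5 remained. With all 36 pull-down libraries in the model it was 4, namely Lyve1, Cldn5, Stab2 and Flt4. The number called over all genes fell in these refits too, so the loss was not particular to the members. From 570 it went to 263, 236 and 259 without ileal replicate 1, 2 or 3, and to 280 with all 36 libraries.

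**Figure D2:**
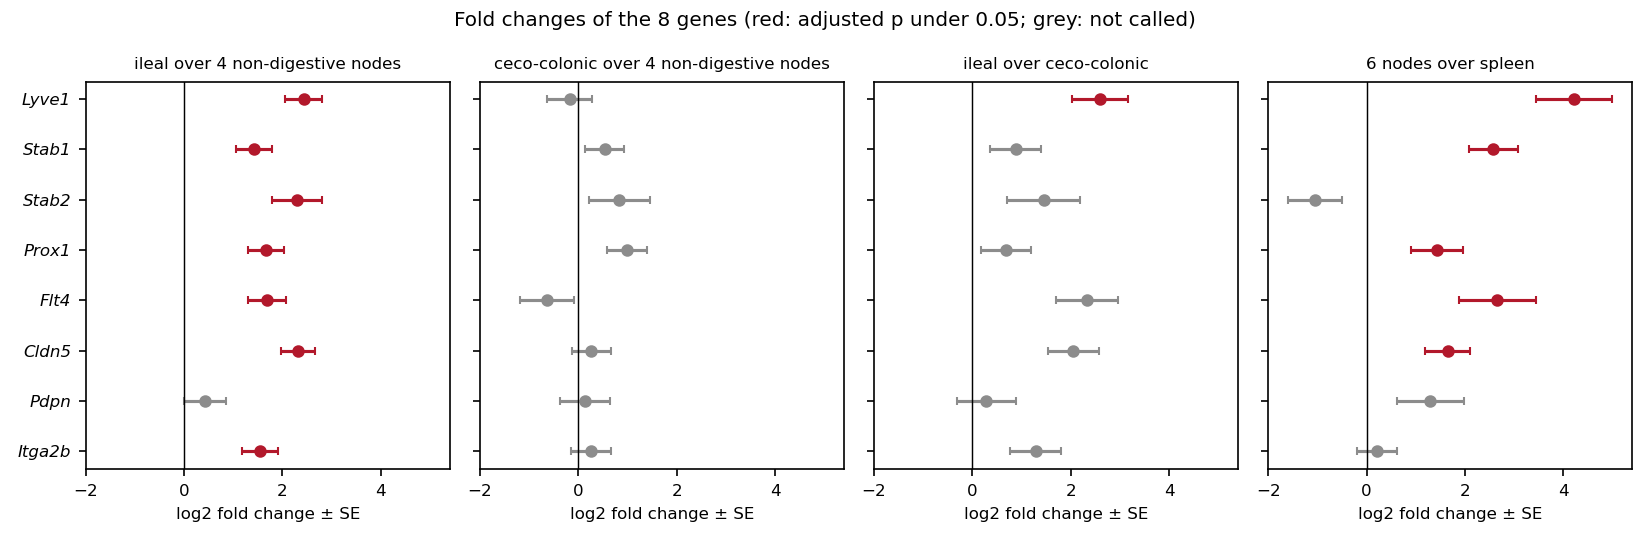
Points are log2 fold changes of each gene in 4 comparisons, bars are their standard errors, and red marks an adjusted p under 0.05. Ileal over the 4 non-digestive nodes has 7 red points, ceco-colonic over the same nodes has 0, ileal over ceco-colonic has 1 and the 6 nodes over spleen have 5.

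Among the receptors for hyaluronan and scavenged ligands, Lyve1 encodes the hyaluronan receptor for which lymphatic vessels are commonly stained, and some tissue macrophages carry it too. Lyve1 stood at 54.5, 68.2 and 55.8 CPM in the ileal libraries, against a lowest of 4.16, a median of 9.61 and a highest of 39.8 CPM in the 12 libraries of the 4 non-digestive nodes. The mediastinal node held the upper end of that range, with 24.1, 24.3 and 39.8 CPM, and the inguinal node the lower, with 4.43, 4.34 and 5.59 CPM. The groups did not overlap, and Lyve1 was higher in the ileal node by 2.43 ± 0.37 on the log2 scale (SE, edgeR adjusted p = 8.77e-05), a call that held with any 1 library left out. Of all 21 pairs of sites Lyve1 differed in 14, more than any other member, and 9 of those 14 calls held with any 1 library of the pair left out.

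Stab1 and Stab2 encode stabilin-1 and stabilin-2, large scavenger receptors of sinusoidal and lymphatic endothelium, of which stabilin-1 is also carried by tissue macrophages and stabilin-2 also takes up hyaluronan. Stab1 had 152.1, 128.5 and 185.6 CPM in the ileal libraries, against a lowest of 32.3, a median of 57.7 and a highest of 108.8 CPM in the 4 non-digestive nodes. Its ileal values were all above the others, and the log2 difference of 1.42 ± 0.37 (edgeR adjusted p = 0.0280) was the smallest of the 7 called. That call was lost without any 1 of the 3 ileal libraries or mediastinal replicate 3, with adjusted p up to 0.235.

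Stab2 stood at 13.4, 13.0 and 15.04 CPM in the ileal libraries, against a lowest of 0, a median of 3.99 and a highest of 10.3 CPM in the 4 non-digestive nodes. Again the groups did not overlap, and the log2 difference was 2.29 ± 0.50 (edgeR adjusted p = 0.00825, or 0.0599 without ileal replicate 3). The lowest values were those of the deep cervical node, with 0, 1.09 and 0.536 CPM from estimated counts of 0.327, 6.53 and 12.3. All 6 pairs of sites in which Stab2 was called had the deep cervical node as the lower site, namely those with the ileal, ceco-colonic, mediastinal, inguinal, super cervical and spleen libraries. The ileal difference from the deep cervical node was 4.50 ± 0.87 (edgeR adjusted p = 0.000554) and was called with any 1 library left out. The mediastinal difference of 3.08 ± 0.85 (adjusted p = 0.0146) was lost without deep cervical replicate 1 or 3, and the other 4 were likewise each lost without 1 or more libraries.

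Stab1 did not share this low point, since the deep cervical libraries held 64.8, 108.8 and 70.5 CPM of Stab1, among the higher values outside the gut nodes. As a share of the summed counts of the 8 genes, Stab2 made up 0.0643% to 0.465% in the deep cervical libraries and 0.985% to 5.29% in the libraries of the other 5 node sites with 3 deeper libraries. Stab1 made up 39.05% to 49.8% in the deep cervical libraries. Those libraries also stood apart in other lists, with B cell genes summing to 298.1 to 402.3 CPM and T cell genes to 81.8 to 131.5 CPM, below every library of the other 5 nodes, and alveolar type 1 genes to 358.6 to 515.5 CPM, above them. The part of these in the Stab2 difference was not tested. The annotated span of Stab1 overlaps that of Nt5dc2 on the opposite strand, and the span of Stab2 overlaps 5 annotated antisense or pseudogene features. Overlap of exons was not checked, and whether counting used strand is not given in the sources used here.

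**Figure D3:**
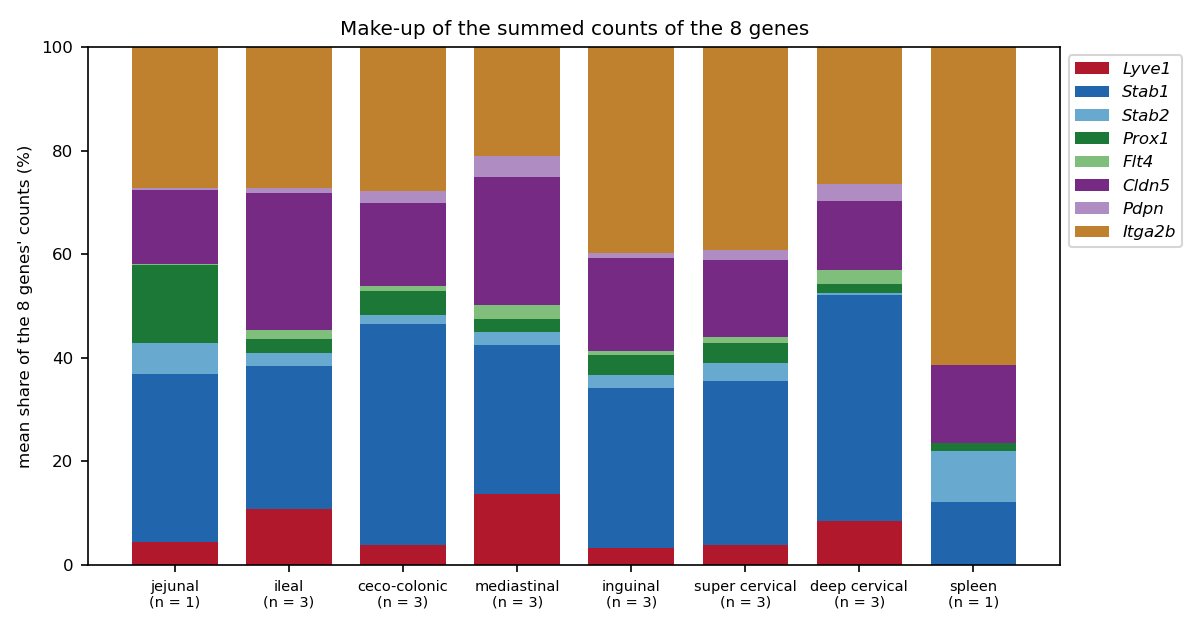
Stacked bars give the mean share, in percent, that each gene takes of the summed counts of the 8 genes, for libraries in which that sum is 100 or more. Stab1, Cldn5 and Itga2b fill most of every bar, Lyve1 is widest in the mediastinal and ileal nodes, Stab2 is hardly visible in the deep cervical node, and Itga2b takes 61.3% of the single spleen library.

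Prox1 encodes the homeobox factor that makes endothelium lymphatic and keeps it so. Prox1 stood at 14.7, 13.1 and 18.5 CPM in the ileal libraries, against a lowest of 2.15, a median of 5.05 and a highest of 11.5 CPM in the 4 non-digestive nodes. No ileal value fell within the range of the others, and the log2 difference was 1.67 ± 0.36 (edgeR adjusted p = 0.00556, or 0.0720 without ileal replicate 3). The single deeper jejunal library, at 91.7 CPM of Prox1, lay far above the ileal mean of 15.4 ± 2.77 CPM (SD, n = 3), while its Flt4 was only 1.68 CPM. With 1 library that difference has no replicate check. The annotated span of Prox1 overlaps those of the antisense genes Prox1os and Gm28172, and whether their exons overlap was not checked.

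Flt4 encodes VEGFR-3, the receptor through which VEGF-C and VEGF-D drive the growth of lymphatic vessels. Its level was low throughout, at 8.44, 10.9 and 9.23 CPM in the ileal libraries, against a lowest of 0, a median of 3.56 and a highest of 5.96 CPM in the 4 non-digestive nodes. The ileal libraries were higher without overlap, by 1.69 ± 0.38 (edgeR adjusted p = 0.00908), but the call was lost without any 1 of them, with adjusted p of 0.0503, 0.109 and 0.0593. Within the 4 nodes Flt4 averaged 5.70 ± 0.418 CPM in the mediastinal, 4.75 ± 1.03 CPM in the deep cervical and 0.990 ± 0.974 CPM in the inguinal node (SD, n = 3 each). The mediastinal node exceeded the inguinal by 2.18 ± 0.59 (edgeR adjusted p = 0.00437), a difference called with any 1 library left out and of 3.41 without inguinal replicate 3. The inguinal values of Flt4 rest on few estimated counts, 2.68, 0 and 38.4.

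Cldn5 encodes claudin-5, a tight junction protein of endothelial cells, lymphatic and blood vascular alike. It was the most abundant member per length in the ileal node and stood at 150.3, 125.1 and 173.1 CPM in the ileal libraries, against a lowest of 16.7, a median of 26.3 and a highest of 56.8 CPM in the 4 non-digestive nodes. The ileal libraries were all well above the highest of the others, and the log2 difference was 2.32 ± 0.35 (edgeR adjusted p = 8.21e-05), called with any 1 library left out. Cldn5 was higher in the ileal node than in each of the 4 when they were taken singly. The difference from the deep cervical node was 2.63 ± 0.53 (adjusted p = 0.000627) and from the super cervical node 2.61 ± 0.54 (adjusted p = 0.00550), while that from the mediastinal node, 1.496 ± 0.51 (edgeR adjusted p = 0.0440), was lost with any 1 of its 6 libraries left out.

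Pdpn encodes podoplanin, a membrane glycoprotein of lymphatic endothelium that also marks fibroblastic reticular cells and the flat alveolar cells of lung. Pdpn stood at 5.52, 5.17 and 5.76 CPM in the ileal libraries, inside the range of the 4 non-digestive nodes, which had a lowest of 0.681, a median of 4.92 and a highest of 10.6 CPM. The difference of 0.43 ± 0.43 was not called (edgeR adjusted p = 0.850). The mediastinal libraries held 8.45, 7.58 and 10.6 CPM, all above every other library, and the inguinal ones 0.681, 2.17 and 2.15 CPM. These inguinal values rest on estimated counts of 1.89, 5.66 and 42.1. The mediastinal node exceeded the inguinal by 2.32 ± 0.63 (adjusted p = 0.00423), called with any 1 library left out, and the super cervical by 1.60 ± 0.62 (edgeR adjusted p = 0.0427), a call lost in 5 of 6 such refits and kept, at 2.84, without super cervical replicate 3. Of 8 genes typical of alveolar type 1 cells, Pdpn included, summed levels were 64.2 to 90.0 CPM in the mediastinal libraries. The sums were 358.6 to 515.5 CPM in the deep cervical libraries and 23.2 to 38.8 CPM in the inguinal ones. Ager alone reached up to 426.4 CPM in the 4 nodes, and the part of this list in the Pdpn differences was not tested.

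Itga2b encodes the integrin chain CD41, best known from platelets and megakaryocytes and also carried by part of the mouse lymph node sinus lining. Itga2b stood at 150.9, 108.3 and 209.2 CPM in the ileal libraries, against a lowest of 35.8, a median of 54.5 and a highest of 82.6 CPM in the 4 non-digestive nodes. The groups did not overlap, and the log2 difference was 1.54 ± 0.37 (edgeR adjusted p = 0.0140), lost without ileal replicate 1 (adjusted p = 0.0750) or replicate 3 (adjusted p = 0.210). Of 9 tested genes of megakaryocytes and platelets, 2 were higher in the ileal node and none lower, Itga2b itself and Clec1b, described below. The list, these genes included, summed to 199.3 to 296.3 CPM in ileal libraries and 78.5 to 134.2 CPM in the 4 nodes. Most of the ileal sum was Itga2b and Clec1b themselves, so the sums are not independent of the Itga2b difference. Pf4, platelet factor 4, stood at 10.1 ± 1.09 CPM in ileal libraries (SD, n = 3) and differed by -1.14 ± 0.47 (edgeR adjusted p = 0.270), and Itgb3, the partner chain of Itga2b, by 0.50 ± 0.32 (adjusted p = 0.624). Ppbp, Treml1 and Tubb1, looked up after the values were seen, were at 0 in all 3 ileal libraries. Their means in the 4 nodes were also near 0, at 0.0211, 0.0245 and 0.0730 CPM, so they do not set the sites apart. The part of this list in the Itga2b difference was not tested. The annotated span of Itga2b overlaps the RNA gene Gm23563 on the same strand, and overlap of exons was not checked.

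The ceco-colonic node, named for the caecum and colon of the large intestine, was compared with the same 4 non-digestive nodes, so both comparisons share those 12 libraries. There 0 of the 8 genes were called by edgeR, 0 by DESeq2 and 0 by limma voom, with 4.13% of all genes called, 2.83% higher and 1.3% lower, and 1 gene, Prox1, had an unadjusted p under 0.05. Prox1 had 13.4, 8.52 and 6.34 CPM in the ceco-colonic libraries, of which 1 lay above the highest of the 12 others, and differed by 0.98 ± 0.41 (edgeR adjusted p = 0.148). The ceco-colonic libraries varied among themselves, with Lyve1 at 17.4, 1.89 and 9.06 CPM and Cldn5 at 60.9, 18.9 and 27.2 CPM. Their median log2 difference from the 4 nodes over the 8 genes was 0.26, against -0.077 over all genes.

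Set directly against the ceco-colonic node, the ileal node held more Lyve1, by 2.60 ± 0.57 (edgeR adjusted p = 0.0382), and 1 of the 8 genes was called where 0.265% of all genes were, 0.214% higher and 0.0509% lower. The call was lost in 5 of the 6 refits that leave out 1 library of either site, and held without ceco-colonic replicate 1, where the difference was 3.44. All 8 fold changes were positive, with a median of 1.37 against 0.093 over all genes. Ileal libraries held 18811172 to 31849079 counts and ceco-colonic ones 2373771 to 4194213, so site and depth cannot be told apart here. Cldn5, at 150.3, 125.1 and 173.1 CPM in the ileal libraries against 60.9, 18.9 and 27.2 CPM in the ceco-colonic ones, differed by 2.05 ± 0.52 (edgeR adjusted p = 0.0688) and Flt4 by 2.33 ± 0.62 (adjusted p = 0.0852), neither of which passed. Cldn5 passed under 4 of the other analyses tried, both genes passing under DESeq2 and with no filter on low counts. Over all genes the number called rose as well, from 52 to 604 under DESeq2 and to 509 with no filter.

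Pairs of sites gave 53 calls in 168 tests of the 8 genes over 21 pairs, where 25.7% of all such tests over all genes were called and the share per pair ran from 0.107% to 66.9%, with a median of 29.6%. Lyve1 was called in 14 pairs, Flt4 and Cldn5 in 7 each, Stab1 and Stab2 in 6 each, Prox1 and Pdpn in 5 each and Itga2b in 3. Of the 53 calls 26 held with any 1 library of the pair left out, 9 of them for Lyve1. When sites were ordered by their mean, 4 of 48 neighbouring pairs differed beyond their spread, where 4.92% of such neighbours did over all genes tested. These were inguinal over spleen for Lyve1 and Stab1, inguinal over deep cervical for Stab2 and ileal over mediastinal for Cldn5 (edgeR adjusted p = 0.0302, 0.0147, 0.0318 and 0.0440). For Lyve1 the order ran from the ileal mean of 59.5 ± 7.59 CPM over mediastinal (29.4 ± 9.02), deep cervical (15.3 ± 5.77), ceco-colonic (9.46 ± 7.78), super cervical (6.42 ± 2.72) and inguinal (4.79 ± 0.695) to spleen at 1.33 ± 1.46 CPM (SD, n = 3 each).

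**Figure D4:**
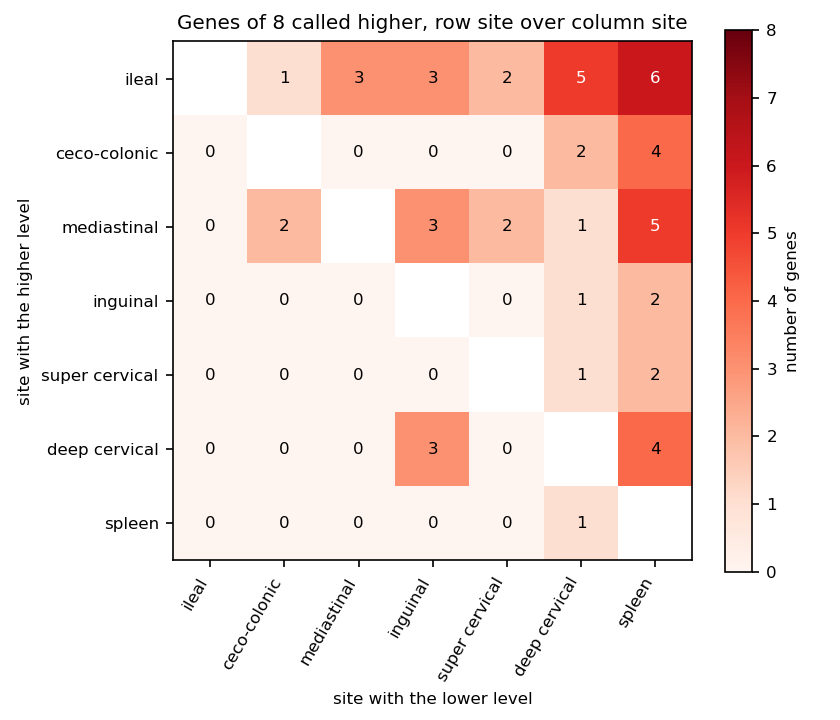
Each cell gives how many of the 8 genes were called higher (adjusted p under 0.05) in the site of its row than in the site of its column, for the 7 sites with 3 deeper libraries. The ileal row holds the most, up to 5 genes over the deep cervical node (9.42% of all genes) and 6 over spleen (28.5% of all genes), and no member was called higher in another site than in the ileal node, although all 3 mediastinal libraries lay above the ileal ones for Pdpn.

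The mean of the 6 node sites with 3 deeper libraries was compared with spleen, whose sinuses carry blood rather than lymph. In the nodes 5 of the 8 genes were higher and none was lower, with 31.4% of all genes higher, 25.7% lower and 57.1% called in either direction. With 1 library left out, 3 to 6 were higher, with 3 higher and Stab2 lower without spleen replicate 3, Stab2 also lower without ceco-colonic replicate 1, and 6 higher without spleen replicate 1. The median log2 fold change of the 8 was 1.54, against 0.267 over all genes tested.

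Lyve1 had a lowest of 1.89, a median of 12.4 and a highest of 68.2 CPM in the 18 node libraries, against 2.89, 0 and 1.11 CPM in spleen. The spleen values rest on estimated counts of 3.85, 0 and 0.914, and the log2 difference was 4.23 ± 0.78 (edgeR adjusted p = 4.98e-05), or 2.72 without spleen replicate 2 and 6.49 without spleen replicate 1. Stab1 had a lowest of 32.3, a median of 66.9 and a highest of 185.6 CPM in the nodes, against 0, 21.7 and 12.2 CPM in spleen, and was the only member whose 18 node libraries all stood above all 3 of spleen, as 13.1% of all genes did. It differed by 2.58 ± 0.50 (edgeR adjusted p = 0.000102), or by 3.75 without spleen replicate 2 and 2.05 without spleen replicate 1. Both genes were called higher in each of the 6 node sites than in spleen, and of these calls 4 of 6 for Lyve1 and 5 of 6 for Stab1 held with any 1 library left out.

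Cldn5 was higher in the nodes by 1.65 ± 0.46 (edgeR adjusted p = 0.00312), Flt4 by 2.66 ± 0.79 (adjusted p = 0.00531) and Prox1 by 1.43 ± 0.53 (adjusted p = 0.0231). The Flt4 value is bounded by few counts, since the 3 spleen libraries held 0, 1.76 and 1.55 estimated counts. Spleen replicate 2 stood apart from the other 2, with 17.5 CPM of Stab2 against 2.89 and 0, 109.4 CPM of Itga2b against 41.2 and 15.5, and 26.8 CPM of Cldn5 against 5.06 and 1.11. Without it the Cldn5 difference was 3.56 and that of Flt4 1.84, Flt4 (adjusted p = 0.120) and Prox1 (adjusted p = 0.0775) were not called, and Itga2b was, by 1.17 (adjusted p = 0.0394). Without spleen replicate 3, Flt4 differed by 3.47, while Cldn5, by 1.02 (adjusted p = 0.0501), and Prox1 (adjusted p = 0.146) were not called. Prox1 was also not called without ileal replicate 3.

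The other 3 members were not called in that comparison. Stab2 differed by -1.05 ± 0.55 (edgeR adjusted p = 0.104), which became 1.24 (adjusted p = 0.304) without spleen replicate 2, -1.68 (adjusted p = 0.0119) without spleen replicate 3 and -1.23 (adjusted p = 0.0487) without ceco-colonic replicate 1. Pdpn differed by 1.30 ± 0.68 (adjusted p = 0.101) and Itga2b by 0.21 ± 0.40 (adjusted p = 0.681). Pdpn was called, by 3.797 (adjusted p = 0.00124), without spleen replicate 1, the library that held 5.78 CPM of Pdpn against 0.161 and 1.11 CPM in the other two.

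In all 36 pull-down libraries the duodenal, jejunal and ileal nodes together were set against the mean of 5 nodes, the 4 above and iliac. By edgeR 0 of the 8 genes were called, 0 had an unadjusted p under 0.05, and DESeq2 and limma voom called 0, with 27% of all 16256 genes tested called, 5.3% higher and 21.7% lower. The median log2 fold change of the 8 was -0.384, against -0.913 over all genes tested. The edgeR standard errors were 2116 for Stab1, 3.87 for Stab2 and 1.76 for Flt4, so a missing call says nothing about these genes' levels. Depth limits this comparison, because the 14 shallower libraries held summed estimated counts of 0.277 to 71.7 for the 8 genes, against 28.7 to 21000 in the 22 deeper ones. The duodenal libraries held sums of 0.277, 6.61 and 1.25 and no member with 3 counts. In those libraries 3 counts correspond to 7.79, 13.5 and 8.59 CPM, and lower levels there rest on fewer than 3 estimated counts. Liver held sums of 11.4, 11.6 and 2.86, celiac 3.86, 17.4 and 15.1, and iliac 4.10, 24.6 and 17.6.

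The isotype control shows what an unspecific pull-down from jejunal node carries. It held 5002926 counts, more than any of the 3 jejunal pull-down libraries, and with 1 isotype library there is no test. On plain library totals, the mean of the 3 jejunal libraries was higher than the isotype value for 7 of the 8 genes, as it was for 55.4% of the 16256 genes tested in all libraries. Stab1 had 15.3, 122.1 and 1.28 CPM in the jejunal libraries, against 1.31 CPM in the isotype control, and Itga2b had 58.9, 102.6 and 0 CPM in the jejunal libraries, against 2.18 CPM in the isotype control. Pooled over the 3 jejunal libraries these are ratios of 65.1 (exact 95% interval from counting 31.1 to 163.5) and 38.5 (21.1 to 78.3). Most of these counts came from replicate 2, without which the log2 ratio of means was 2.66 for Stab1, against 5.14 with all 3, and 3.75 for Itga2b, against 4.62.

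Stab2, Cldn5, Lyve1 and Prox1 had pooled ratios of 43.5 (11.4 to 369.8), 15.6 (8.94 to 29.4), 13.7 (5.37 to 44.7) and 12.1 (7.42 to 20.8). Without jejunal replicate 2 the log2 ratios of means were 2.31 for Stab2, 2.31 for Cldn5, 2.56 for Lyve1 and 1.999 for Prox1, against 4.26, 3.30, 3.29 and 2.95 with all 3 jejunal libraries. The isotype library held 3.71 CPM of Prox1 and 2.73 CPM of Cldn5. For Pdpn the ratio of 2.47 had an interval of 0.418 to 16.9, from 4 and 3 counts. Flt4 went the other way, at 0, 0.905 and 0 CPM in the jejunal libraries against 2.59 CPM in the isotype control, a ratio of 0.285 (0.0312 to 1.26). Intervals and floors cover counting error only, and jejunal replicate 3, with 1.26 summed counts, held no member at 3 counts or more.

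**Figure D5:**
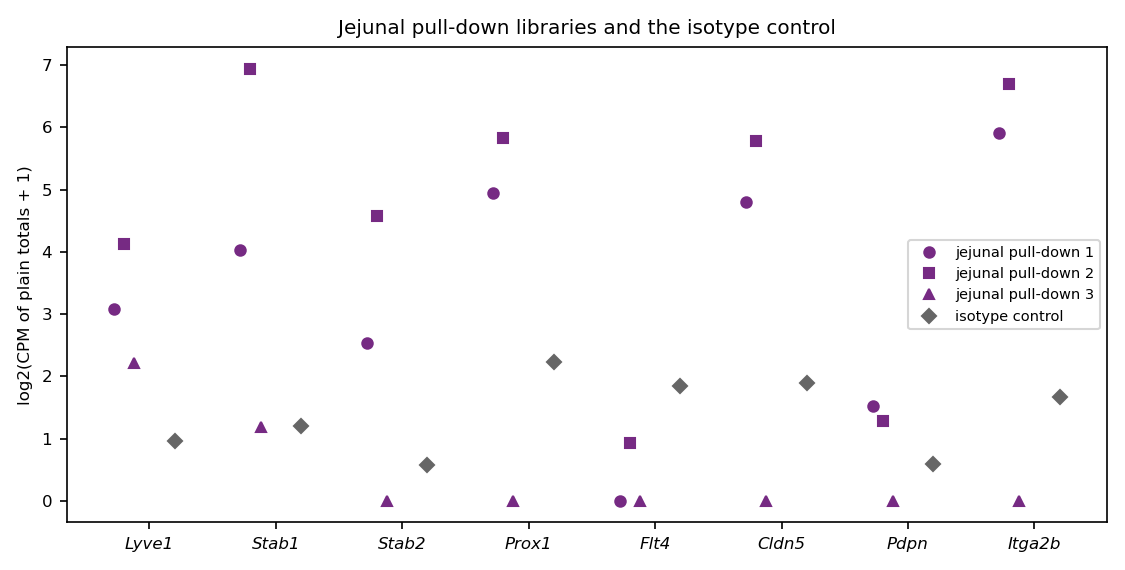
Points are log2 of CPM on plain library totals plus 1 for the 3 jejunal pull-down libraries (purple) and the isotype control (grey diamond). Replicate 2 is above the isotype control for every gene but Flt4, replicate 1 likewise, and replicate 3 is at 0 for 6 of the genes.

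Genes of the same pathway were followed in lists chosen by name, with earlier results of these data known. Of 17 tested genes of lymphatic growth factor signalling and lymphatic identity, 3 were higher in the ileal node than in the 4 non-digestive nodes and none lower, with a list median of 0.60 against -0.005 over all genes, of which 1.62% were higher. Kdr, the VEGFR-2 receptor, had 33.9 ± 3.09 CPM in ileal libraries (SD, n = 3) and 15.8 ± 10.7 CPM in the 4 nodes (n = 12), a log2 difference of 1.39 ± 0.27 (edgeR adjusted p = 0.00214). Itga9, an integrin chain of lymphatic valves, differed by 1.57 ± 0.35 (adjusted p = 0.00735), and Mmrn1, a secreted lymphatic marker, by 1.68 ± 0.47 (edgeR adjusted p = 0.0482). With 1 library left out 1 to 3 were called, and Kdr was called in every such refit, while Itga9 was lost without ileal replicate 1 or 2 and Mmrn1 in 11 of 15 refits. Against the ceco-colonic node 1 of the 17, Kdr, was higher in the ileal node, by 1.83 ± 0.39 (edgeR adjusted p = 0.0366, lost in 5 of 6 refits).

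Of 18 tested genes of sinus lining subsets 4 were higher in the ileal node than in the 4 non-digestive nodes, all with any 1 library left out. They were Clec4g, a lectin of liver and node sinus endothelium (2.87 ± 0.55), Marco, a scavenger receptor of sinus macrophages and medullary lining (2.28 ± 0.44), Madcam1, the gut-homing addressin (1.53 ± 0.33), and Csf1, the macrophage growth factor (1.41 ± 0.26, adjusted p of the 4 from 0.00130 to 0.00512). Marco stood at 6272 ± 640 CPM in ileal libraries (SD, n = 3) and 1408 ± 699.5 CPM in the 4 nodes (n = 12). Clec4g was low, with a mean of 0.734, a lowest of 0 and a highest of 3.07 CPM in the 4 nodes (n = 12). That highest value was also the highest of the 18 node libraries, so no ileal library exceeded it. The Clec4g difference thus rests on low levels, and its ileal libraries did not all stand above those of the 4 nodes. The list median was 0.33.

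Among 11 tested partners and ligands of the members, Clec1b and Hyal2 were higher in the ileal node and none was lower. Clec1b encodes CLEC-2, the receptor of podoplanin, found on platelets and on some macrophages and dendritic cells. Clec1b had 59.97 ± 4.004 CPM in ileal libraries (SD, n = 3) and 9.83 ± 8.39 CPM in the 4 nodes (n = 12), with the ileal values of 55.6 to 63.5 CPM above the highest of the 4 nodes, 26.9 CPM. It differed by 3.01 ± 0.30 (edgeR adjusted p = 1.13e-07), and in the ceco-colonic node, at 31.3 ± 3.08 CPM, by 2.07 ± 0.32 from the same 4 nodes (adjusted p = 0.000777). Both calls held with any 1 library left out. Pdpn itself was called in neither comparison. Hyal2, a hyaluronidase, differed by 1.26 ± 0.30 (edgeR adjusted p = 0.0130), lost without any 1 ileal library.

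Markers of other cells moved between the same groups. Of 14 tested genes of sinus and resident macrophages, 5 passed as higher in ileal libraries than in the 4 non-digestive nodes and none as lower, Adgre1, Cd5l, C1qc and C1qa having the smallest p, with summed levels of 2313 to 2908 CPM in ileal libraries and 423.4 to 2372 CPM in the 4 nodes. The count ran from 2 to 7 with 1 library left out, and Siglec1 itself was at 0.429 ± 0.196 CPM in ileal libraries. Of 12 general endothelial genes 2 were higher (Egfl7 and Kdr), with summed levels of 280.0 to 354.5 CPM in ileal libraries and 160.8 to 286.2 CPM in the 4 nodes. Blood endothelial genes went lower in 2 of 13 (Flt1 and Aqp1, lost in 10 and 7 of 15 refits), with sums of 84.8 to 286.2 CPM in ileal libraries and 55.2 to 1722 CPM in the 4 nodes. Fibroblastic reticular genes were higher in 2 of 14 (Lepr and Dcn), with sums of 1097 to 1201 CPM in ileal libraries and 651.7 to 1719 CPM in the 4 nodes. List medians of the log2 difference were 0.95 for macrophage and 0.72 for general endothelial genes. They were -1.14 for blood endothelial and -0.38 for fibroblastic reticular genes, against -0.005 over all genes. Of all genes 1.62% were called higher and 1.28% lower. The 7 B cell genes summed to 1345 to 1887 CPM in ileal libraries and 298.1 to 2401 CPM in the 4 nodes, and the 7 T cell genes to 379.3 to 397.5 CPM in ileal libraries and 81.8 to 705.3 CPM in the 4 nodes. Single genes weighed heavily in some of these sums. In the 4 nodes Glycam1 averaged 406.2 CPM (blood endothelial) and Pecam1 114.9 CPM (general endothelial). Ccl19 averaged 715.3 CPM (fibroblastic reticular), C1qa 531.3 CPM (macrophage) and Pax5 825.8 CPM (B cell) there. The part of these lists in the members' differences was not tested.

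Against spleen, 9 of the 17 genes of lymphatic growth factor signalling and identity were higher in the 6 nodes and 1 was lower, where 31.4% of all genes were higher and 25.7% lower, and the number higher ran from 7 to 9 with 1 library left out. Nrp2, the co-receptor of Flt4, had 49.6 ± 16.4 CPM in the 18 node libraries and 9.72 ± 3.63 CPM in spleen (SD, n = 3), a difference of 2.21 ± 0.32 (edgeR adjusted p = 2.47e-06). Sox18 and Vegfc were picked after their values were seen. Sox18, a factor upstream of Prox1 in lymphatic development, had 3.70 ± 3.18 CPM in the nodes and was at 0 in all 3 spleen libraries. The gene lower in the nodes was Vegfc, the ligand of Flt4, which in spleen was above 0 in 1 library alone. In the same comparison fibroblastic reticular genes had 8 of 14 higher and 2 lower, T cell genes 5 of 7 higher and none lower, macrophage genes 8 of 14 higher and none lower, B cell genes 3 of 7 higher and 3 lower, and megakaryocyte and platelet genes 1 of 9 higher and 3 lower.

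Across the 22 deeper libraries the members did not move as 1 block. Pearson correlations of log2 CPM between members ran from -0.115 for Stab2 with Pdpn to 0.794 for Prox1 with Cldn5, as a description over libraries that share sites and differ in depth. Stab1 and Stab2 correlated at 0.232. Among 9088 genes with a mean of 5 CPM or more, those most like Lyve1 over the 22 libraries were Cpe (0.933), Tnc (0.905) and Macrod2 (0.893). Nearest to Stab1 were Fam167b (0.954), Unc5b (0.953) and Naaa (0.95), and to Stab2 Gimap7 (0.846), Ciita (0.835) and Pclaf (0.823). For Prox1 they were Atp6v1d (0.942), Gpr34 (0.926) and Aif1 (0.913), and for Cldn5 Bok (0.964), Scarf1 (0.945) and H2-DMb1 (0.932). Flt4 was closest to Slf2 (0.906), Cryzl2 (0.868) and Spast (0.866), Pdpn to Cnot2 (0.883), Fah (0.868) and Pdcl3 (0.842), and Itga2b to Ppfibp1 (0.853), Guca1a (0.833) and Agpat5 (0.824).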

How the data were processed

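The authors deposited 1 table of estimated counts per gene for 37 libraries, not scaled to a common total. Per the submitters' processing notes kallisto, limma and edgeR were used, without version or role, and the builds GRCm39 and mm10 are both named. How transcripts were summed to genes is not given in the sources used here. Of the values above 0, 99.3% were not whole (tolerance 0.001), so the estimated counts were rounded before testing. Genes without a symbol, 0.0159% to 0.115% of a library's counts, were left out.

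Tests used edgeR 4.0.16 in R 4.3.3 (TMM, filterByExpr with minimum count 10 and total 15, robust quasi-likelihood fit with 1 mean per site, Benjamini-Hochberg adjustment over all genes, threshold 0.05) on the 22 libraries of 1000000 or more counts, or on all 36 pull-downs where stated. The isotype control entered no model. DESeq2 1.42.0 and limma 3.58.1 were alternatives. A standard error is the fold change divided by the square root of F. A call is an adjusted p under 0.05. The scripts were tested on simulated counts.

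The rule for names takes all 8 members, up to 4 genes of each list by smallest p, and the 3 genes most correlated with each member. Members and lists were chosen with earlier results of these data known. Replicates were different libraries (36 pairs, chi-square per degree of freedom 10.8 to 198). Overlaps and transcript lengths came from GENCODE M21.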

Additional observations from a re-analysis of the deposited data

How the results depend on the processing

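Counts of members called kept within 1.5 times of the values given under RLE scaling, no filter, DESeq2, limma voom and removal of the ribosomal features, apart from those named here. For the ileal against the ceco-colonic node, 1 member was called, but 2 under RLE scaling and under limma voom, 3 without a filter and with DESeq2, and 0 with all 36 libraries. Calls over all genes changed alike, from 52 to 105 under RLE scaling and 96 under limma voom. They were 509 without a filter, 604 with DESeq2 and 34 with all 36 libraries. With all 36 libraries 4 members were called in the ileal against the 4 non-digestive nodes, and 35 calls of members were made in site pairs. Over all genes the first of these comparisons went from 570 calls to 280. Leaving out 1 library gave 7 to 8 members differing among sites, 44 to 59 called in pairs, 2 to 7 for ileal against 4 nodes, 0 to 2 for ileal against ceco-colonic and 4 to 6 in either direction for nodes against spleen. It gave 0 for ceco-colonic against 4 nodes and for small-intestinal against 5 nodes, and 7 for jejunal against isotype, where Flt4 without jejunal replicate 2 has no ratio. Whether equal replicate numbers pair the libraries of different sites was not settled, and the main model does not block on them. Over 63 same-numbered pairs the correlation ran from -0.307 to 0.429, with a median of 0.0212 and 16 above 0.1. The median for different numbers was -0.0209, and 12 of 21 libraries correlated best with their own number. With a replicate block 8 members differed among sites, 54 calls were made in pairs, 7 in ileal against 4 nodes, 1 in ileal against ceco-colonic and 5 in nodes against spleen. The values that changed sign belong to members that were not called in the comparison with all its libraries. In ceco-colonic against 4 nodes, Pdpn was -0.0194 under RLE and -0.00406 with DESeq2, and with 1 library left out Lyve1 ran from -1.01 to 0.28, Itga2b from -0.46 to 0.60, Stab2 from -0.29 to 1.18 and Cldn5 from -0.38 to 0.56. In nodes against spleen, Itga2b was -0.00067 with all 36 libraries and ran from -0.42 to 1.17, and Stab2 from -1.68 to 1.24, with 1 library left out. In small-intestinal against 5 nodes, Lyve1 was -0.0131 under RLE and -0.00645 without ribosomal features, Stab2 was 0.58 with DESeq2, 1.13 with limma voom and 0.72 against all 8 other nodes, Itga2b was 1.31 against all 8, and with limma voom Flt4 was 0.17 and Pdpn 0.0384. With 1 library left out, Prox1 there ran from -1.48 to 1.47, Lyve1 from -2.14 to 0.47, Cldn5 from -2.16 to 0.79 and Itga2b from -2.99 to 0.20. The cause was not tested. In the 14 libraries under 1000000 counts 3 counts are 3.27 to 13.5 CPM, and lower levels there rest on fewer than 3 estimated counts.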
